A study of Mus musculus with 56 samples.

Results

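Wild-type tibialis anterior, a muscle of the front of the lower leg, was compared between injection of an adeno-associated virus (AAV) and injection of saline (NaCl) in the first week. The comparison used the 15 wild-type (WT) libraries of 3 and 7 days post injection (dpi), chosen by their labels from the 56 bulk RNA libraries of 14 groups in the series. At 3 dpi there were 3 saline and 5 AAV libraries, and at 7 dpi 3 saline and 4 AAV libraries. The remaining groups were WT muscles at 21 dpi and muscles carrying the titin mechanical knock-out (mKO) allele, homozygous (HOMO) or heterozygous. The virus encodes GFP fused to TEV protease, a plant-virus enzyme that cuts titin in mKO muscle, where the allele supplies its recognition site. Titin of WT muscle lacks that engineered site, so AAV against saline in WT muscle measured what vector, capsid and transgene did without titin cleavage. The labels describe no group given a vector without the protease, so the contributions of vector and protease cannot be told apart here. Serotype, dose and promoter of the vector, and strain, sex and age of the mice, are not given in the sources used here. Separate animals are not stated as the source of the libraries, so the p-values measure a spread between libraries that may be technical in part.

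AAV delivers single-stranded DNA to the nucleus, where a second strand is made before the transgene is transcribed, so expression in muscle builds up over days. Viral DNA and capsids can be read by pattern-recognition receptors such as Tlr9, which induce interferons, and interferons switch on antiviral genes in the cells that receive them. Muscle holds resident macrophages, which take up debris, make complement C1q and increase in number after injury. In bulk tissue, more cells of a type and more RNA per cell cannot be told apart.

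The 15 libraries held 17.4 M to 23.5 M recovered reads (M, 1e6 reads), with a median of 20.5 M. Values below are normalised read counts as deposited, which are on a scale near that of counts per 1e6 reads, and are compared between libraries for 1 gene at a time. Xist, transcribed from the inactive X chromosome of females, lay between 108 and 159 in all 15 libraries, and 0 of 4 Y-linked genes looked for were in the table. The tissue label fitted its markers: 14 fast fibre genes, which make the bulk of contractile RNA in this muscle, summed to 134139.8 or more in every library. A library stood apart at 3 dpi. In AAV replicate 3, 226 genes differed more than 2-fold from the median of the other 14 libraries, 198 of them higher, against 40 to 98 genes in each of the others. Printed counts of list members at 3 dpi are therefore also given without it where it changed them. A separate library, AAV replicate 1 at 7 dpi, was high in a narrow set of genes that are described further on.

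Some libraries of different treatment deviated together from their group means. Over the 27 pairs of an AAV and a saline library of the same day, correlations of these deviations across genes ran from -0.34 to 0.40, and over 56 pairs from different days they ran from -0.17 to 0.19. The highest were saline replicate 1 with AAV replicate 3 at 3 dpi, at 0.40, and saline replicate 3 with AAV replicate 4 at 7 dpi, at 0.39. The 6 pairs that share a replicate number lay between -0.24 and 0.33, so the numbers gave no pairing. Genes are not independent, these are descriptions without a test, and no label says whether such libraries share an animal.

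**Figure D1:**
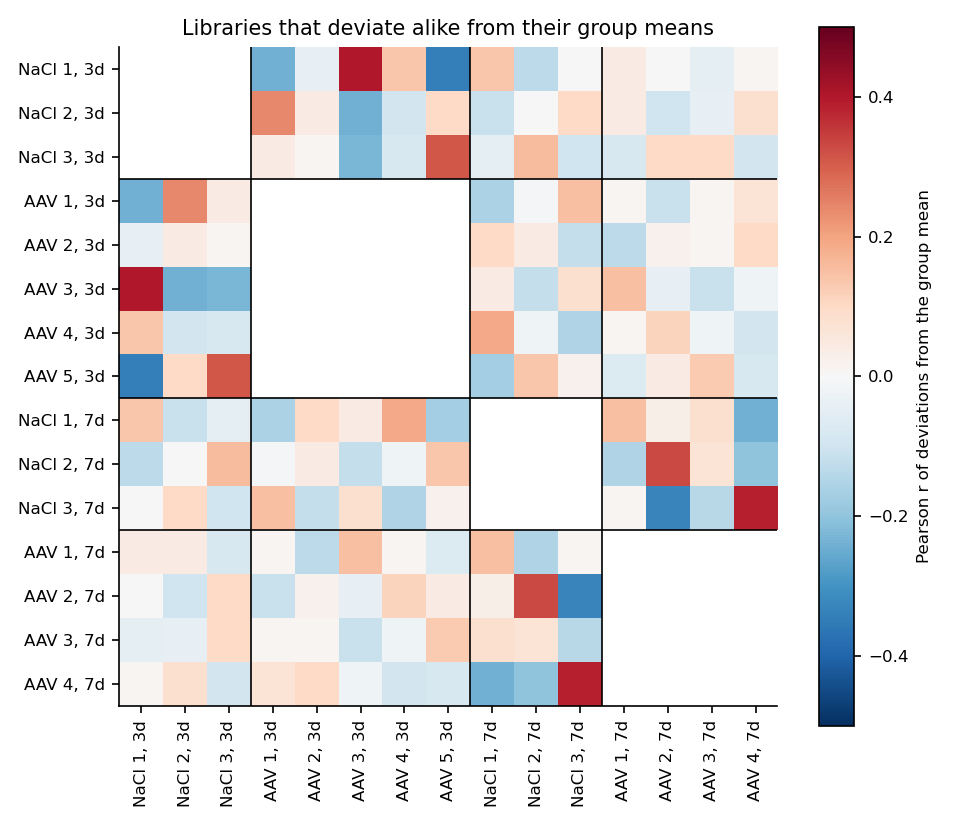
Correlation across genes of each library's deviation from its group mean, for all pairs of the 15 WT libraries in different groups (pairs within a group are left blank). The highest values join saline replicate 1 with AAV replicate 3 at 3 dpi, at 0.40, and saline replicate 3 with AAV replicate 4 at 7 dpi, at 0.39.

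The transgene marked every AAV library. At 3 dpi its normalised counts were 9.59, 8.20, 16.4, 3.31 and 48.4 in AAV replicates 1 to 5, and 0.0268, 0.184 and 0.0268 in the saline libraries. At 7 dpi they were 249, 158, 227 and 324 in the AAV libraries and 0.0249, 0.0287 and 0.0233 in the saline libraries. In reads, the AAV libraries held 56 to 965 at 3 dpi and 3201 to 5557 at 7 dpi, against 0 to 3 and 0 in saline. All labels thus matched the presence of the transgene, and the groups of the 2 days did not overlap.

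Transgene RNA rose between the days, from 17.2 ± 18.1 (SD, n = 5) to 239.5 ± 68.3 (SD, n = 4), a ratio of means of 13.9. On the log2(value + 1) scale the difference was 4.17, with p = 0.0159 in a two-sided exact permutation test over 126 arrangements. At 7 dpi the transgene ranked between 305 and 715 among all 14871 genes measured, and at 3 dpi between 2447 and 10295. The spread within 3 dpi was wide, and AAV replicate 5 held the most. AAV replicate 3, the library that stood apart, held the next highest amount.

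**Figure D2:**
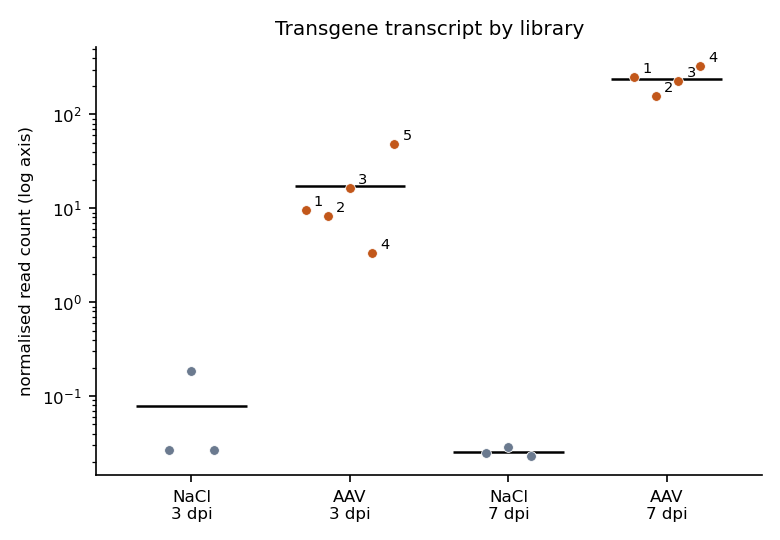
Normalised read count of the GFP-TEV transgene in each of the 15 WT libraries on a log axis, with 1 point per library and a line at each group mean. Saline libraries sit at or under 0.184, the 3 dpi AAV libraries between 3.31 and 48.4, and the 7 dpi AAV libraries between 158 and 324.

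Against this change in transgene, no endogenous gene was called in any WT comparison. Called means a Benjamini-Hochberg adjusted p under 0.05 over the 12425 genes tested with limma on log2(value + 1). AAV against saline gave 0 calls (0%) at 3 dpi, 0 (0%) at 7 dpi and 0 (0%) with both days pooled and day as a block, and the difference between the 2 days' responses gave 0 (0%). At an unadjusted limma p under 0.05 there were 554 genes at 3 dpi (4.46%), 308 of them higher with AAV (2.48%) and 246 lower (1.98%). At 7 dpi there were 241 genes (1.94%), 116 higher (0.934%) and 125 lower (1.01%). With both days pooled there were 387 (3.11%), 1.75% of all genes higher and 1.36% lower. For the difference between days there were 403 (3.24%), 1.57% higher and 1.67% lower. The smallest adjusted p in limma was 0.0949 at 3 dpi, for Apobr, 0.999 at 7 dpi, 0.308 pooled, for the long noncoding RNA Gm42047, and 0.998 for the difference.

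The fit also set how large an unseen change could be. The 95% interval of the AAV minus saline difference lay within 2-fold either way on that scale for 12025 genes at 3 dpi (96.8%). It did so for 12125 at 7 dpi (97.6%) and 12301 pooled (99%). Fold changes of low genes are understated on this scale, so their intervals bound the change in expression less closely. Estimated differences of 2-fold or more on the same scale numbered 24 at 3 dpi, 13 at 7 dpi and 6 pooled. The median absolute log2 difference was 0.0838 at 3 dpi and 0.0752 at 7 dpi, beside median standard errors (SE) of 0.126 and 0.132. DESeq2 on recovered reads called 10 genes at 3 dpi: Adgre1, Fcrls, Ncf1, Pagr1a, C1qc, Apobr, Selplg, Cfb and Gm47761 as higher with AAV and Nfic as lower. For Pagr1a its log2 difference was 23.03, beside 2.30 or less for the others called higher, so that size is not taken as measured. DESeq2 called 0 at 7 dpi, where 241 genes had an unadjusted limma p under 0.05, and edgeR and limma voom called 0 on both days.

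The genes nearest to a call at 3 dpi are best known from macrophages. Apobr (chr7:126584942-126589112, plus strand, GRCm38), a receptor for apolipoprotein B48 on macrophages, stood at 1.04, 0.341 and 0.134 with saline and at 2.34, 2.16, 3.30, 2.02 and 2.03 with AAV. Every AAV library lay above every saline library, and the log2 difference was 1.19 ± 0.19 (SE, limma adjusted p = 0.0949). Leaving out saline replicate 1 made Apobr the single called gene, at 1.44 with an adjusted limma p of 0.00858. Apobr overlaps Cln3 in the annotation and its values are low, so its share of reads is uncertain.

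Adgre1 (chr17:57358691-57483527, plus strand), which encodes the macrophage surface marker F4/80, stood at 1.90, 2.49 and 1.58 with saline and at 5.65, 4.46, 10.6, 4.72 and 5.69 with AAV at 3 dpi. The groups did not overlap, and the highest value belonged to AAV replicate 3. The log2 difference was 1.23 ± 0.23 (SE, limma adjusted p = 0.383). At 7 dpi Adgre1 stood at 3.71, 2.61 and 3.43 with saline and at 4.60, 2.29, 2.83 and 2.42 with AAV. Those groups overlapped, with a log2 difference of -0.10, and the change in response between the days was -1.33 (limma adjusted p = 0.998).

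C1qc, a chain of the complement starter C1q made by macrophages, was 5.49, 4.70 and 5.29 with saline and 10.6, 8.31, 12.7, 11.0 and 8.99 with AAV at 3 dpi. AAV libraries were again all above saline, by 0.87 ± 0.18 on the log2 scale (limma adjusted p = 0.490). At 7 dpi it was 7.75, 5.82 and 5.25 with saline and 7.64, 4.02, 6.56 and 4.40 with AAV, and the groups overlapped. Fcrls, an Fc receptor-like gene of tissue macrophages, was 1.74, 2.02 and 1.74 with saline against 4.07, 3.54, 5.15, 5.37 and 5.39 with AAV, a log2 difference of 1.00 ± 0.21. Cfb, factor B of the alternative complement pathway, was 3.35, 1.76 and 1.10 against 8.21, 4.29, 9.15, 4.66 and 6.59, a difference of 1.32 ± 0.28. Both sets were fully separated, and neither gene was called.

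Other genes with small p at 3 dpi differed little in size. Derl2, an adaptor of protein export from the endoplasmic reticulum for degradation, was 12.9, 11.3 and 12.2 with saline and 14.4, 16.4, 16.4, 15.7 and 16.2 with AAV, a log2 difference of 0.36 ± 0.08. It overlaps Mis12. Among lower values, Nfic, a transcription factor of the nuclear factor I family, was 401, 411 and 384 with saline and 360.1, 348, 349, 338 and 357 with AAV, a difference of -0.18 ± 0.05. Prr14 was 19.7, 18 and 20.9 against 15.4, 16.7, 15.2, 16.0 and 14.6, a difference of -0.31 ± 0.08. For these 3 genes the groups did not overlap and no call was reached. Over all genes, 200 lay wholly above saline at 3 dpi (1.61%) and 196 wholly below (1.58%).

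As a list, macrophage markers were higher with AAV at 3 dpi without any member being called. Of 21 listed genes 18 were tested, and 14 of the 18 had an unadjusted limma p under 0.05 and were higher, where 2.48% of all genes were. All 18 estimates were above 0, with a median of 0.87 beside -0.01 for all genes, and 10 of the 18 did not overlap between the groups, where 1.61% of all genes did so in this direction. Without AAV replicate 3 the count was 12 and the median 0.65. Without saline replicate 1 they were 10 and 0.93, and without both libraries 10 and 0.56. Without AAV replicates 3 and 4 they were 10 and 0.51.

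Per library, the summed level of the 21 markers was 103, 106 and 103 with saline and 183, 144, 426, 225 and 187 with AAV at 3 dpi. The lowest AAV library thus lay above the highest saline library, and AAV replicate 3 stood far above the rest. Ctss, the lysosomal protease cathepsin S, was 3.24, 4.54 and 4.59 with saline and 11.0, 7.39, 35, 14 and 10 with AAV, a log2 difference of 1.49 ± 0.37. Lyz2, lysozyme, was 31.7, 32.9 and 34.2 against 59.7, 50.4, 120.4, 69.0 and 60.7, a difference of 1.04 ± 0.27. Mrc1, the mannose receptor of resident macrophages, was 15, 14.9 and 13.9 against 20.6, 17.2, 22.1, 20.9 and 20.7, a difference of 0.45 ± 0.11. AAV replicate 3 was about as high as replicates 1, 4 and 5 for Mrc1, while for Ctss and Lyz2 it was far above them. Mpeg1, a pore-forming protein of phagocytes, also peaked there, at 33.5, with 8.37 to 16.0 in the other AAV libraries and 4.49 to 5.28 in saline.

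At 7 dpi the estimates for the list lay near 0. The summed level was 120.1, 78.6 and 112 with saline and 165, 103, 109.8 and 74.2 with AAV, and the groups overlapped. None of the 18 members, 0 of 18, had an unadjusted limma p under 0.05 in the higher direction (0.934% of all genes), and the median was 0.06. Tested directly, the response at 7 dpi minus that at 3 dpi had a median of -0.77 over the list, and 7 of 18 members were lower at an unadjusted limma p under 0.05, beside 1.67% of all genes. Aif1, Trem2 and Cx3cr1 lay under the expression filter.

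**Figure D3:**
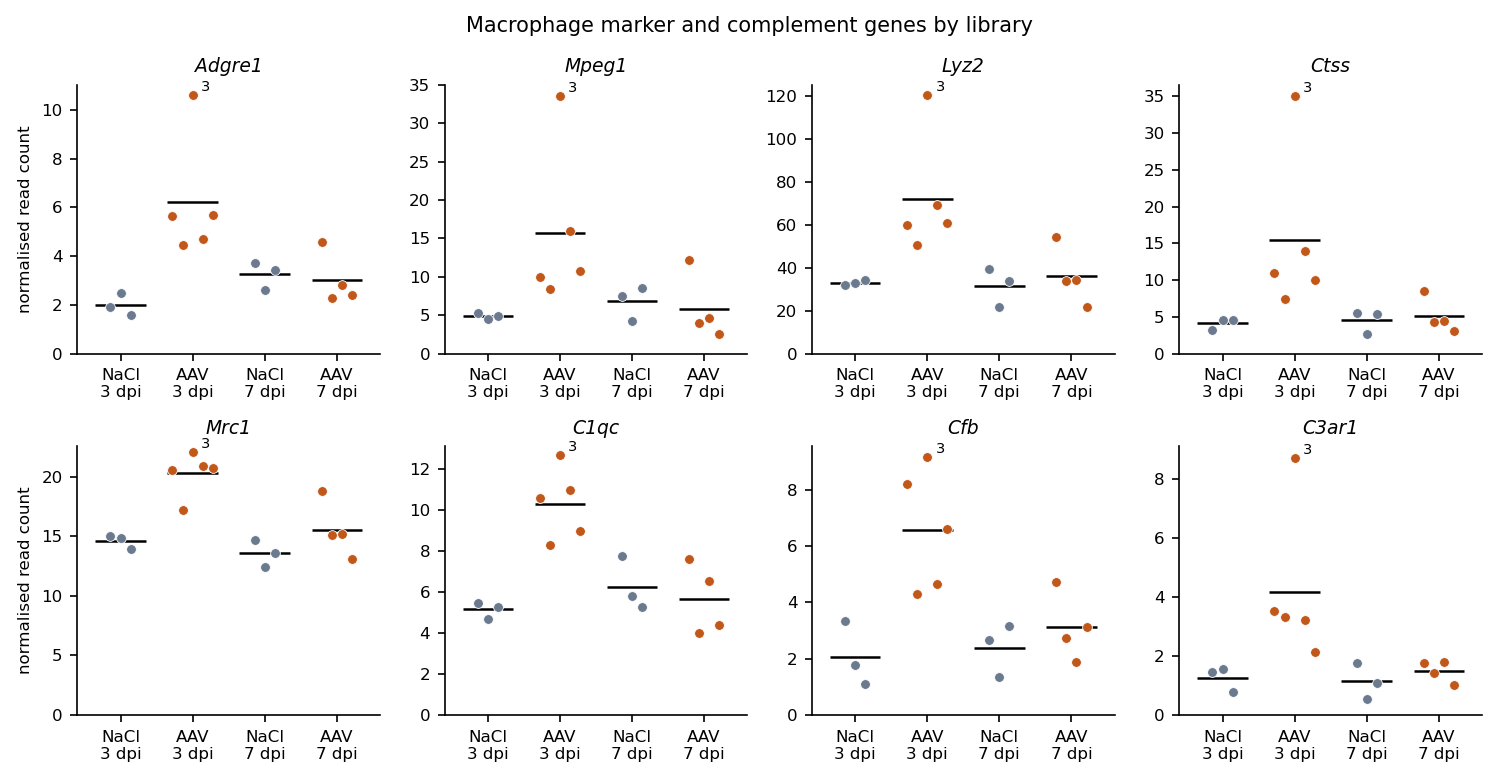
Normalised read counts of 8 macrophage and complement genes (Adgre1, Mpeg1, Lyz2, Ctss, Mrc1, C1qc, Cfb and C3ar1) in the 15 WT libraries, on linear axes from 0, with 1 point per library and a line at each group mean. At 3 dpi the AAV points lie above the saline points in each panel, with replicate 3 highest for Ctss at 35, and at 7 dpi the 2 groups overlap for Adgre1, Ctss and C1qc.

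Complement genes, which the liver and macrophages make to tag and lyse targets, followed at a smaller size. Of 16 tested members 9 were higher at 3 dpi at an unadjusted limma p under 0.05 (2.48% of all genes), all 16 estimates were above 0 and the median was 0.49. Without AAV replicate 3 the count was 8 and the median again 0.49. At 7 dpi 1 member, the C1 inhibitor Serping1, was higher (0.934% of all genes) and the median was 0.17, which without AAV replicate 1 of that day became 0 members and 0.04. The response was lower at 7 than at 3 dpi for C1qc, C1ra and Cfb at an unadjusted limma p under 0.05 (1.67% of all genes). Summed levels of the 16 were 225 to 266 with saline and 282 to 377 with AAV at 3 dpi, and 203 to 266 and 224 to 302 at 7 dpi. C3ar1, the C3a receptor of myeloid cells, was 1.47, 1.55 and 0.778 against 3.53, 3.31, 8.70, 3.20 and 2.13 at 3 dpi, a log2 difference of 1.09 ± 0.29.

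Genes of antigen presentation gave fewer differences. Of 16 tested, 3 were higher at 3 dpi at an unadjusted limma p under 0.05 (2.48% of all genes), with a median of 0.20, all of class II, which antigen-presenting cells use to show peptides to helper T cells. They were H2-Eb1 at 0.86 ± 0.28, H2-Aa at 0.75 ± 0.28 and Cd74 at 0.71 ± 0.28. The class I gene H2-K1 differed by 0.22. The count was 2 without AAV replicate 3 and 0 without AAV replicates 3 and 4, with a median of 0.07 in both cases. At 7 dpi 0 of 16 passed (0.934% of all genes), with a median of 0.15 that turned to -0.07 without AAV replicate 1 of that day.

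Interferon-stimulated genes, the usual readout of antiviral sensing, gave few differences on either day. Of 26 tested genes, 1 was higher at 3 dpi at an unadjusted limma p under 0.05 (2.48% of all genes) and 0 were at 7 dpi (0.934%), with medians of -0.02 and 0.15. Without AAV replicate 3 the 3 dpi count stayed at 1 with a median of -0.06, and without AAV replicate 1 the 7 dpi median was 0.01. That gene was Irf7, the amplifier of interferon production, at 4.47, 2.65 and 2.98 with saline and 7.37, 4.46, 7.18, 5.78 and 5.29 with AAV. Its groups touched, since AAV replicate 2 fell just under saline replicate 1, and the difference was 0.69 ± 0.22 (limma adjusted p = 0.998). Isg15, a ubiquitin-like antiviral protein, differed by 0.05 ± 0.25 at 3 dpi and by -0.01 at 7 dpi, with a 95% interval of -0.47 to 0.58 at 3 dpi. Ifit1, which binds uncapped viral RNA, differed by -0.14 ± 0.37 and 0.15. Cxcl10 and Ccl2, chemokines that draw T cells and monocytes, lay under the expression filter.

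Upstream of interferon, 13 sensing genes held 2 higher members at 3 dpi and 1 at 7 dpi at an unadjusted limma p under 0.05 (2.48% and 0.934% of all genes), with medians of 0.06 and -0.03. Without AAV replicate 3 the 3 dpi count was again 2, with a median of 0.05. The 16 genes of AAV entry and trafficking held 1 higher and 1 lower (1.98% of all genes) at 3 dpi and 0 at 7 dpi, and the lower one did not pass without AAV replicate 3. Their medians were 0.04 and 0.01. Acute inflammatory genes were mostly too low to test, with 5 of 22 above the filter and 0 of 5 past an unadjusted p of 0.05 in limma on either day. Of 19 p53 targets, which answer DNA damage, 2 were higher at 3 dpi (2.48% of all genes), 1 at 7 dpi (0.934%) and 3 pooled (1.75%) at an unadjusted limma p under 0.05, and without AAV replicate 3 the 3 dpi count was 1. Cdkn1a, the p53-induced cell cycle inhibitor p21, was 21.1, 10.3 and 23.2 with saline and 17.1, 38.5, 44.3, 36.2 and 30.8 with AAV at 3 dpi. At 7 dpi it was 50, 37.6 and 16.4 against 33.5, 53.6, 61.6 and 46.3. The groups overlapped on both days, and the pooled log2 difference was 0.72 (limma adjusted p = 0.999).

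Protein-folding genes were also nearly level. The unfolded-protein-response list, which muscle uses when folding in the endoplasmic reticulum fails, had 2 of 22 members higher at 3 dpi (2.48% of all genes) and 0 at 7 dpi (0.934%) at an unadjusted limma p under 0.05, with medians of 0.02 and 0.01. Without AAV replicate 3 the 3 dpi count was 1. Hspa5, its main chaperone BiP, was 189 ± 18.2 with saline (SD, n = 3) and 189 ± 9.64 with AAV (SD, n = 5) at 3 dpi, a log2 difference of 0.00 ± 0.11. Of 18 heat shock genes 0 passed an unadjusted p of 0.05 in limma on either day. Of 21 proteasome genes 1 was lower on each day at that threshold (1.98% of all genes at 3 dpi and 1.01% at 7 dpi).

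**Figure D4:**
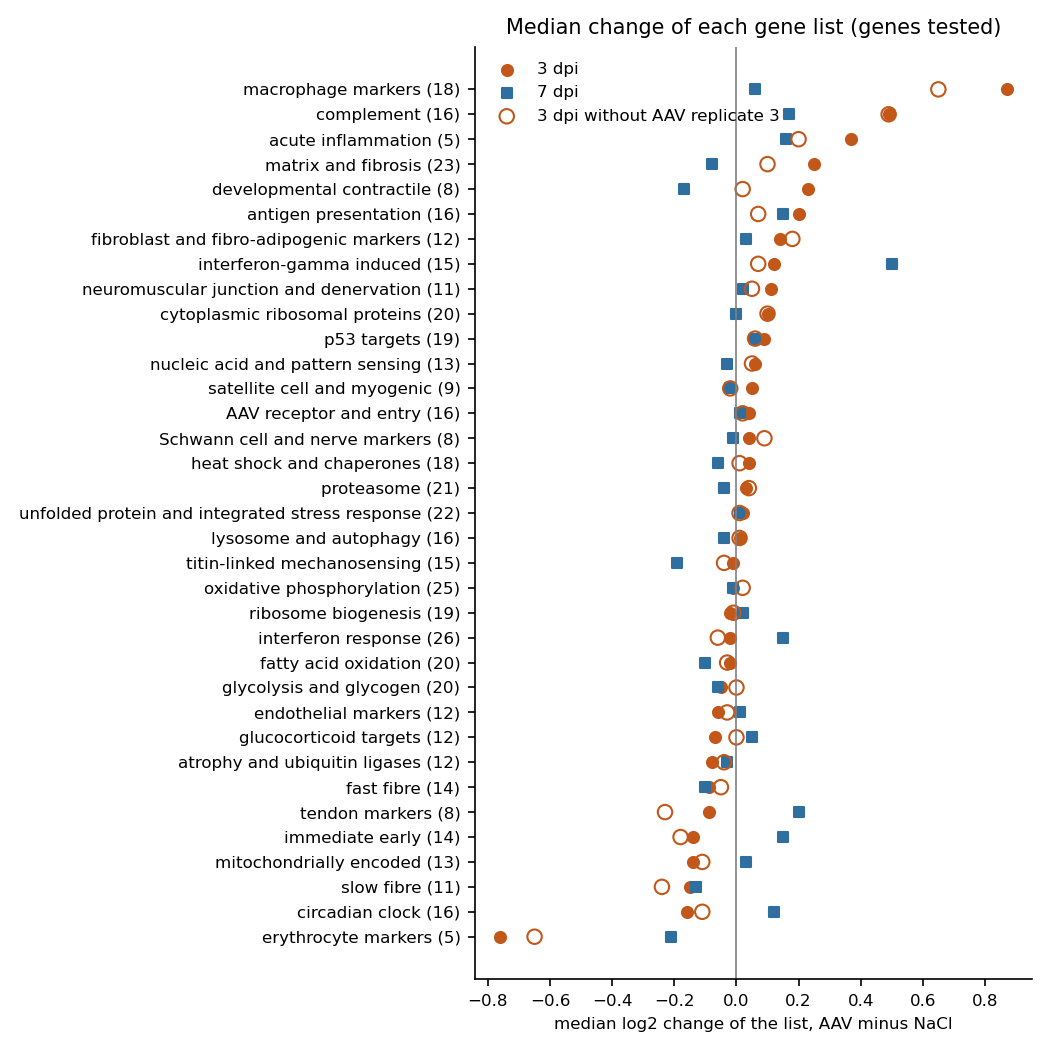
Median log2 AAV minus saline difference of each gene list with at least 5 tested genes in WT muscle at 3 dpi and 7 dpi, 1 row per list. Filled markers show each day, and open circles show 3 dpi without AAV replicate 3. Macrophage markers stand out on the right at 3 dpi with 0.87 and lie at 0.06 at 7 dpi, and interferon response lies at -0.02 and 0.15.

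Markers of other cells gave few differences among the genes that could be tested. T and natural killer markers were too low to test, 0 of 16 above the filter, with summed levels of 1.66 to 2.41 with saline and 2.71 to 9.86 with AAV at 3 dpi, and 1.66 to 3.13 and 2.19 to 6.59 at 7 dpi. Cd8a, the coreceptor of cytotoxic T cells, and the immunoglobulin light chain Igkc lay under the filter. Endothelial markers had medians of -0.06 and 0.01 over 12 genes, and fibroblast markers 0.14 at 3 dpi with 1 of 12 higher at an unadjusted limma p under 0.05 (2.48% of all genes), or 0.18 and 2 without AAV replicate 3. Erythrocyte genes were lower at 3 dpi, with a median of -0.76 over 5 genes that became -0.21 without saline replicate 1. Their summed level was 337 to 1293 with saline and 248 to 491 with AAV, so this difference rested on 1 saline library.

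Muscle genes gave estimates near 0. Titin, the protease's target in mKO muscle, ranged from 8476 to 12490.2 over the 15 libraries, with log2 differences of -0.02 ± 0.11 at 3 dpi and -0.05 ± 0.12 at 7 dpi. At 3 dpi the medians were -0.09 for 14 fast fibre genes, -0.15 for 11 slow fibre genes, -0.01 for 25 nuclear genes of oxidative phosphorylation, -0.02 for 20 of fatty acid oxidation and -0.05 for 20 of glycolysis. Trim63, the ubiquitin ligase MuRF1 of muscle atrophy, differed by -0.10, and Ppargc1a, a regulator of mitochondrial biogenesis, by -0.06. Col1a1, a chain of type I collagen, differed by 0.09. Matrix genes had 3 of 23 higher at an unadjusted limma p under 0.05 (2.48% of all genes) and a median of 0.25. Without AAV replicate 3 these became 1 higher (2.34% of all genes), 1 lower and a median of 0.10. Developmental contractile genes went from 0.23 to 0.02 when that library was left out.

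AAV replicate 3 at 3 dpi carried a pattern of its own. In it 84 genes stood at least 2-fold above the median of the other 4 AAV libraries and above all 7 other 3 dpi libraries, and 6 stood as far below. These counts took genes at 5 CPM or more in this library or in that median, and passed over predicted genes and pseudogenes. The 84 are genes chosen by their values in this library, so what follows describes it and tests nothing. The largest was Myh3, the embryonic myosin heavy chain of regenerating fibres (chr11:67078300-67102291, plus strand), at 73.9. It stood at 17.7 in AAV replicate 4 and at 1.70 to 3.95 in the 6 remaining 3 dpi libraries. Lgals3, galectin-3 of activated phagocytes (chr14:47367751-47386160, plus strand), was 48.8, beside 13.8 in AAV replicate 4 and a median of 3.61 over the other 4 AAV libraries.

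Of the 84 genes, 9 were in the macrophage list and 4 in the developmental contractile list, and the others were in neither. Among the highest, Myog, the factor that drives myoblast differentiation, was 24.6 against a median of 4.39 in the other AAV libraries, and Myl4, an embryonic and atrial light chain, was 25.2 against 3.88. Tnnt2, the cardiac and embryonic troponin T, was 17.3 against 3.78. Among 8 developmental contractile genes the median log2 excess was 1.90 and 5 lay above all 7 other libraries, where 14.5% of all genes did. Ankrd1, a stretch-responsive titin-binding repeat protein, was 49.1 against 8.49, with 21.8 in AAV replicate 4 and 17.4 in saline replicate 1. Rrad, a small GTPase of the Rad family induced in damaged muscle, was 13.8 against 0.934.

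Some phagocyte and matrix genes were high as well. Gpnmb, a glycoprotein of lipid- and debris-laden macrophages, was 15 against 2.27, and Cd68, a lysosomal macrophage protein, was 13.2 against 2.73. Over the macrophage markers the median log2 excess was 1.00 and 17 of 18 lay above all 7 other libraries, where 14.5% of all genes did. The exception, the macrophage marker Cd163, went the other way, with a log2 difference of -1.05 from the median of the other AAV libraries. Tnc, tenascin-C of repairing matrix, was 17.3 against 3.16, and 14 of 23 matrix genes lay above all others. Of 16 antigen presentation genes 13 did, and of 26 interferon response genes 11 did, with median excesses of 0.63 and 0.39. Mt2, a metal-binding metallothionein of stress, was 16.4 against 3.39.

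Fast fibre genes and several lists of energy genes were low in the same library, while slow fibre and fatty acid oxidation genes were not. Below all 7 other libraries lay 11 of 14 fast fibre genes, 17 of 25 oxidative phosphorylation genes, 12 of 13 mitochondrially encoded genes and 16 of 20 glycolysis genes, where 21.7% of all genes did. The sizes were small, with median log2 deficits of -0.24 for fast fibre, -0.15 for oxidative phosphorylation and -0.27 for glycolysis genes. Of 20 fatty acid oxidation genes 2 lay below all 7, with a median log2 difference of 0.07. Of 11 slow fibre genes 2 did, with a median of 0.68. Of the 6 genes at least 2-fold lower, Arrdc2, an arrestin-domain gene, was 10.3 against 40.3, and Cntfr, the ciliary neurotrophic factor receptor, was 5.55 against 16.7. Saline replicate 1 was nearly as low for these, at 12.6 and 5.60. Stab2, a scavenger receptor, was 3.30 against 8.24.

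AAV replicate 4 lay part of the way. It was the next highest 3 dpi library for 45 of the 84 genes, saline replicate 1 for 18, AAV replicate 1 for 9 and each other library for 7 or fewer. The transgene stood at 9.59, 8.20, 16.4, 3.31 and 48.4 in AAV replicates 1 to 5, and its relation to this order was not tested.

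**Figure D5:**
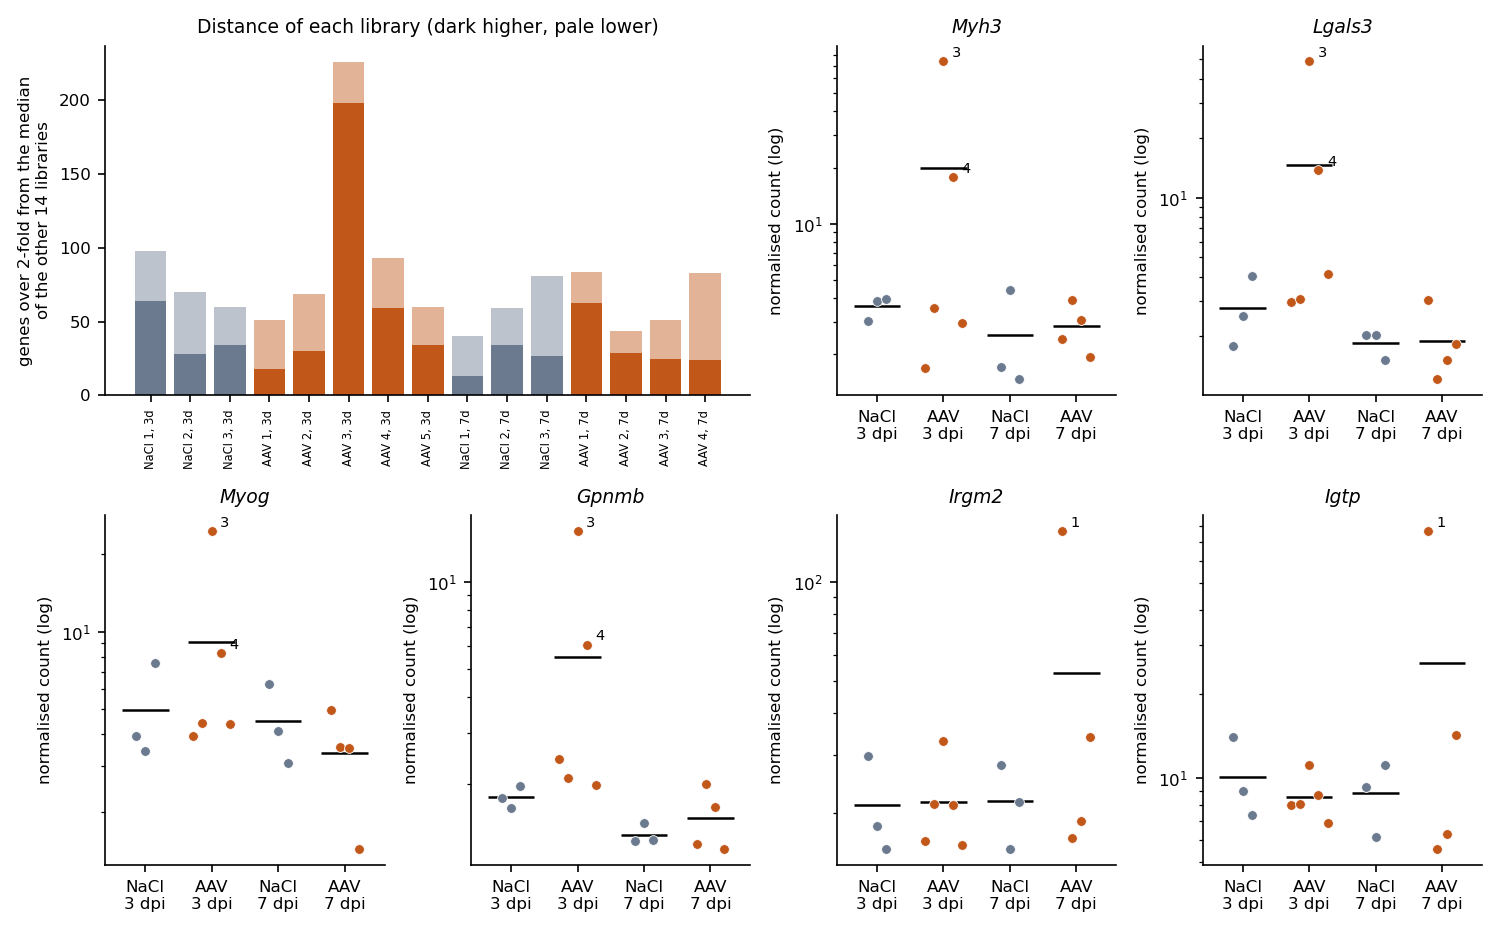
Left, the number of genes more than 2-fold from the median of the other 14 WT libraries, 1 bar per library from 0, with AAV replicate 3 at 3 dpi at 226 and all others at 98 or fewer. The other panels show normalised read counts of Myh3, Lgals3, Myog, Gpnmb, Irgm2 and Igtp per library on log axes, with 1 point per library, a line at each group mean and replicate numbers beside the libraries discussed.

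The 84 genes were compared with 2 contrasts that hold none of the 15 libraries, taken from a fit of all 56 samples in which every group shares the spread. In HOMO muscle at 3 dpi, AAV against saline called 1983 genes higher (16.0%), and 58 of the 84 were among them, which is 69.0% of the 84 and 2.92% of the 1983. In WT muscle at 21 dpi, 2118 genes were called higher (17.0%) and 78 of the 84 were among them, 92.9% of the 84 and 3.68% of those called. The shares of all genes were taken without the 5 CPM limit of the 84 and with predicted genes included. Lgals3 was higher in both, by 3.86 and 3.75 on the log2 scale. Myh3 was higher in WT at 21 dpi, by 5.33, and was not called in HOMO at 3 dpi, where it differed by -1.30 (limma adjusted p = 0.0789). WT AAV against saline at 3 dpi called 0 of all 12425 genes, so its 0 of the 84 is no separate result.

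AAV replicate 1 at 7 dpi differed in another set, found after its values were seen. In it 38 genes stood more than 1.5-fold above each of the other 14 libraries, beside 102 in AAV replicate 3 at 3 dpi and at most 10 in each other library. They included the interferon-gamma-induced GTPases that attack the vacuoles of intracellular parasites. The widest gaps belonged to 4 genes of chromosome 18. Gm4841 was 241 against at most 6.51 elsewhere, BC023105 was 121 against 18.8, Iigp1 was 125 against 21.6 and F830016B08Rik was 49.4 against 8.31. Irgm2 was 143 against at most 33.9 elsewhere, Igtp 76.8 against at most 14.3, and Gbp7 43.4 against at most 18.4. Tap1, the peptide pump of class I presentation, was 16.5 against at most 7.75. Of 15 interferon-gamma-induced genes 13 lay above all other 14 libraries, where 4.67% of all genes did, with a median log2 excess of 1.53 over the other 3 AAV libraries of its day.

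Genes best known from type I interferon were less far above the rest. Isg15 was 2.78 beside 0.611 to 1.78 elsewhere, and Ifit1 was 5.77 with 5.74 in AAV replicate 4. Of 26 interferon response genes 14 lay above all others, with a median excess of 0.63. Of 16 antigen presentation genes 11 did, with a median excess of 1.18, and 0 of 18 macrophage markers did. The macrophage markers still had a median excess of 0.65 over the other 3 AAV libraries of that day. The 14 libraries include the 3 dpi AAV libraries, whose summed macrophage levels reached 426, against 165 in this library. The 7 dpi median of the interferon-gamma list was 0.50 with AAV replicate 1 and 0.07 without it. With that library included, 0 of 15 tested members were higher at an unadjusted limma p under 0.05 (0.934% of all genes). At the same unadjusted threshold DESeq2 gave 7 and edgeR 5 (1.16% of all genes in each), and limma voom gave 0 (1.04%). AAV replicate 4 of that day was also above saline. The summed level of the 18 genes was 602, 117, 105 and 206 in AAV replicates 1 to 4, and 104 to 151 with saline. Of the 38 genes, 35 were called higher in WT muscle at 21 dpi (92.1%, against 17.0% of all genes). The transgene of AAV replicate 1, at 249, lay within the range of its group.

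Promoters of some of these genes are shown because interferon-gamma acts through a palindromic element and type I interferon through another motif. Irgm2, Igtp and Gbp7 all belong to the 6 of 18 genes with a promoter entry that held both motifs, so they do not represent the set. Which interferon acted was not tested. The letters searched were TTCNNNGAA, the gamma-activated site (GAS), and a pair of GAAA runs with any 2 bases between them, the core of the interferon-stimulated response element (ISRE), on both strands in the 250 bases before each start in RefSeq's set of promoters (GRCm38.p6). Capitals mark matches, and adjacent or overlapping matches run together where they touch. Irgm2 is chr11:58214727-58214976 (plus strand), Igtp chr11:58199306-58199555 (plus) and Gbp7 chr3:142530086-142530335 (plus). Printed beside them, Isg15 is chr4:156200819-156201068 (minus) and Ifit1 chr19:34640639-34640888 (plus).
Irgm2: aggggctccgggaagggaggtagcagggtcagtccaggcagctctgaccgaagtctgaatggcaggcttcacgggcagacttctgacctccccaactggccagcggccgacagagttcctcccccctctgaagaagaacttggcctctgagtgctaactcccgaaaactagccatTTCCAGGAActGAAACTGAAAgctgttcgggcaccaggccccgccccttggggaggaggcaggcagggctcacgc
Igtp: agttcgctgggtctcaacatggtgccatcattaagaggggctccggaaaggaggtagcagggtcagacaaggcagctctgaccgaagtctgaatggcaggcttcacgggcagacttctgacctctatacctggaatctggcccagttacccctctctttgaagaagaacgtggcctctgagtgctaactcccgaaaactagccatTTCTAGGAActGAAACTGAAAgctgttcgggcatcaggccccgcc
Gbp7: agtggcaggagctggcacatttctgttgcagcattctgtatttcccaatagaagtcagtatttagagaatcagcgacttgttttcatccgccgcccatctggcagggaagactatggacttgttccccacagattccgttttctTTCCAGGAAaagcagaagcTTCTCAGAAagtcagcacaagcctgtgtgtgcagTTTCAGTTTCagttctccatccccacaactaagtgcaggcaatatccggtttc
Isg15: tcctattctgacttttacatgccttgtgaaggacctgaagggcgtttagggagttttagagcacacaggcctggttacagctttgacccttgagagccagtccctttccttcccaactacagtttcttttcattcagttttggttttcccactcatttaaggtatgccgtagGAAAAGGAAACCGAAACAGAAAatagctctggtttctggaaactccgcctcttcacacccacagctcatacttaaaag
Ifit1: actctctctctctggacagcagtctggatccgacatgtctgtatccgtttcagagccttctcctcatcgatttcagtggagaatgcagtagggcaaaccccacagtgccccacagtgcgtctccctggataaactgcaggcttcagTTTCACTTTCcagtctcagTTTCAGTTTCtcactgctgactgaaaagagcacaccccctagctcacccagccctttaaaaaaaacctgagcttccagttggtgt
Irgm2 and Igtp each held 1 GAS and 1 ISRE match side by side, Gbp7 held 2 GAS and 1 ISRE, Isg15 held 3 overlapping ISRE and 0 GAS, and Ifit1 held 2 ISRE and 0 GAS. Irgm2 overlaps Igtp in the annotation, and their promoters share much of their letters.

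Promoters were looked at for the 34 of the 38 genes that are not on chromosome 18, whose sequences are not used here, and 18 of the 34 had an entry. Among these, 9 held the ISRE core, 6 held GAS and 6 held both. Of all 32851 promoters, 2.98% held the ISRE core, 7.02% held GAS and 0.332% held both. The counts are of genes with a match in any of their entries, and the shares are of single promoter entries, so they are not the same measure. Every gene with GAS also held the ISRE core, and B2m, Irgm1 and Gm4117 held the ISRE core without GAS. The 6 genes with both were Gbp7, Gm12185, Igtp, Irgm2, Tgtp1 and Tgtp2. Several of them are near-copies of each other, so they are not independent matches. A match is a run of letters and not evidence of binding.

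The genes with the smallest p at 7 dpi formed no list chosen here. Apeh, an acylamino-acid peptidase, was 23.6, 22.2 and 24.3 with saline and 31.6, 28.6, 31.1 and 26.9 with AAV, a log2 difference of 0.33 ± 0.08. Polr2a, the large subunit of RNA polymerase II, was 61.4, 67.0 and 55.2 against 87.2, 80.6, 100.2 and 85.5, a difference of 0.52 ± 0.14. The groups of both genes were separate, and their adjusted limma p was 0.999. Over all genes 225 lay wholly above saline (1.81%) and 259 wholly below (2.08%). Zc3h11a had the largest difference among them, 2.52 ± 0.68, but the annotation holds 2 overlapping copies whose sum was 107 to 125 in all 15 libraries, so the split of reads between the copies is uncertain.

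With the days pooled, Ecm1, a secreted matrix glycoprotein (chr3:95734147-95739569, minus strand), had one of the smallest p, at 0.39 (limma adjusted p = 0.999). Its differences at 3 and 7 dpi were alike, with a change between the days of -0.07 ± 0.17. Fcrls and Selplg, the selectin ligand of leukocytes, followed at 0.67 and 0.79. Phospho1, a phosphatase of bone and muscle, was lower by -0.15, and the olfactory receptor gene Olfr639 by -0.38.

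The WT response was set beside that of HOMO muscle at 3 dpi and that of WT muscle at 21 dpi, with the difference itself tested in the fit of all 56 samples. At 21 dpi WT muscle called 4878 genes (39.3%). The 21 dpi response differed from the 7 dpi response for 2064 genes (16.6%), among them 16 of 18 macrophage markers, 21 of 26 interferon response genes and 14 of 15 interferon-gamma-induced genes, all higher at 21 dpi, where 8.06% of all genes were. Igtp, for example, differed by 3.81 ± 0.72 (limma adjusted p = 0.000370). At 3 dpi HOMO muscle called 4227 genes (34.0%), and its response differed from that of WT for 1209 (9.73%). Hspa5 had a higher response in HOMO muscle, by 0.98 ± 0.17 (limma adjusted p = 0.000268), and so did Trim63, by 1.03 ± 0.24. Among macrophage markers 9 of 18 had a higher response in HOMO muscle, where 5.16% of all genes did. Adgre1 and C1qc were not among them, each with a difference of 1.12 ± 0.51 and adjusted limma p-values of 0.156 and 0.155, and 0 of 26 interferon response genes differed between the genotypes.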

How the data were processed

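Bulk RNA libraries of WT tibialis anterior were grouped by their titles. The tools used were RSEM, Bowtie, FastQC and limma on the GRCm38/mm10 genome, per the submitters' processing notes, with versions and the strand setting of counting not given in the sources used here; per the labels' protocols the kit was directional. RSEM splits reads of near-identical genes by estimation. The authors deposited a signal of normalised read counts for 14871 genes: each value is reads plus 0.5 over an effective library size, scaled to 1e6. Whole reads were recovered for 99.999% of values, within 0.02 reads. All columns had a sample, so 0 were left out. Of the identifiers, 14861 matched GENCODE M21, used for coordinates and overlaps, and 10 did not.

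limma 3.58.1 (R 4.3.3) was fitted to log2(value + 1) with an intensity trend and 1 mean per group over the 15 libraries, or day plus treatment for the pooled comparison. Fold changes on this scale understate those of low genes. Testing took the 12425 genes whose mean reached 1 CPM and left out 2445. Calls needed an adjusted p (Benjamini-Hochberg) under 0.05. The transgene was kept out of the fit and tested by exact permutation. Errors are SE unless SD is named. Intervals are 95%.

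The planned test allowed for normalised values, so limma stayed in use, and the recovered reads were also run through DESeq2 1.42.0, limma voom and the quasi-likelihood test of edgeR 4.0.16. Others were pseudocounts of 0.25 and 4, no filter or at least 5 CPM, all 56 samples or 1 day, median-of-ratios or quantile scaling, robust or quality-weighted spread, a replicate block and leaving out each library. Scripts were tested on simulated data.

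Members, the 42 gene lists and tests were chosen with earlier results of these data known. The rule named up to 5 genes of smallest p each way per comparison when fewer than 5 were called, a fixed set including Ttn, Isg15, Irf7, Adgre1 and Cdkn1a, up to 4 members of each list, and up to 12 genes each way for AAV replicate 3. Predicted genes were passed over. Fewer are named where values added little. Some items of the rule are not reported here.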

Additional observations from a re-analysis of the deposited data

Results flagged for a closer look

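Single libraries far from the rest of their group were looked for in 220 values of named genes, list levels and library measures, and 15 were found. Chance alone gives about 1 in 20. Gene values here are log2(value + 1), and list values are means of it over the members.

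At 3 dpi AAV replicate 3 accounted for 5. It was the highest for Apobr at 2.10, for Adgre1 at 3.54 and for Spp1, osteopontin, at 2.81. It was the lowest for the glycolysis and glycogen list at 9.94, and it held the 226 genes more than 2-fold from the median of the other libraries. AAV replicate 5 was the highest for the glucocorticoid target list at 5.69, and AAV replicate 2 was the lowest for Mrc1 at 4.18.

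At 7 dpi AAV replicate 1 was the highest for 4 values: antigen presentation at 5.05, nucleic acid and pattern sensing at 3.23, proliferation at 1.41 and the class II gene H2-Eb1 at 5.08. AAV replicate 4 was the lowest for Ecm1 at 3.43, Hspa5 at 7.10 and Col1a1 at 6.19. AAV replicate 2 was the lowest for Prr14 at 4.08.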

How the results depend on the processing

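With 0 genes called in each comparison, the number under alternatives moved as follows. At 3 dpi it was 1 with sample quality weights (Apobr, limma adjusted p = 0.0311), 10 with DESeq2 and 1 without AAV replicate 3 and saline replicate 1 together (Apobr, limma adjusted p = 0.0105), the last chosen after seeing the data. With both days pooled DESeq2 called 3 (Ecm1, Gm42047 and Gm47761). For the difference between days it called 1, Pagr1a, at a log2 value of -23.26, a size likewise not taken as measured. Leaving out 1 library at a time gave 0 to 1 calls at 3 dpi, 0 to 1 at 7 dpi, 0 to 1 pooled and 0 to 0 for the difference. The single calls were Apobr at 3 dpi and Gm42047 pooled without saline replicate 1 at 3 dpi, and Zc3h11a at 7 dpi and F13a1 pooled without AAV replicate 4 at 7 dpi. All other alternatives run gave 0 calls, among them the other 2 chosen after seeing the data.

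The macrophage count at 3 dpi was 7 with a filter of at least 5 CPM, where 9 members could be tested, and 10 to 16 with 1 library left out. The complement count was 6 with that filter, where 10 members could be tested, and 7 to 10 with 1 library left out. The log2 rise of the transgene was 3.82 to 4.28 over pseudocounts and scalings and 3.78 to 4.65 with 1 library left out. Among 2480 recomputed values of named genes 2430 moved by less than 1 SD, 40 moved by more, 10 became called and 0 reversed. List medians at 3 and 7 dpi were recomputed with quantile scaling and without AAV replicate 3 at 3 dpi, 164 values in all, and 1 moved by more than the spread between libraries, that of the fast fibre genes at 3 dpi under quantile scaling (-0.00). Leaving out other libraries moved further medians, given beside those results.

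Replicate numbers did not pair the libraries: deviations of same-numbered libraries correlated at -0.24, 0.04 and -0.23 at 3 dpi and at 0.15, 0.33 and -0.14 at 7 dpi. A fit with replicate number as a block called 0 genes in each comparison. Depth limits genes near the filter of 1 CPM most. With 3 saline libraries a day, single libraries weigh heavily.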

Other observations

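A pair of long noncoding RNAs had higher means in AAV than in saline muscle at both days without being called by limma, and was chosen after its values were seen. Gm42047 (chr8:121833247-121841178, plus strand, GRCm38), which lies within the span of Gm20388, was 10.8, 4.33 and 3.89 with saline and 22.5, 11.9, 26.2, 7.89 and 19.3 with AAV at 3 dpi. At 7 dpi it was 6.35, 4.56 and 1.66 with saline and 23.7, 11.7, 27.1 and 14.6 with AAV. The groups overlapped at 3 dpi through saline replicate 1 and AAV replicate 4, and were separate at 7 dpi. The pooled log2 difference was 1.66 (limma adjusted p = 0.308). In muscles outside the 15 its median was also higher with AAV than with saline in each genotype and day sampled: 19.4 against 9.31 in HOMO at 3 dpi, 21.1 against 10.6 in HOMO and 13 against 3.06 in heterozygous muscle at 7 dpi, and 18.8 against 4.74 in WT and 48.3 against 8.29 in HOMO at 21 dpi. Gm47761 (chr10:17318085-17323228, minus strand) was lower in level, at 1.26, 0.184 and 0.456 against 3.38, 2.62, 4.42, 1.32 and 3.23 at 3 dpi, and 0.772, 1.29 and 0.677 against 3.67, 1.45, 3.87 and 0.903 at 7 dpi. Its groups were separate at 3 dpi and overlapped at 7 dpi, where AAV replicate 4 lay under saline replicate 2. DESeq2 called it with the days pooled.

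Libraries of different treatment that deviated together shared a few large values, also chosen after they were seen. Saline replicate 1 and AAV replicate 3 at 3 dpi held Nnt, the mitochondrial transhydrogenase, at 158 and 146, while the other 13 WT libraries held 10.6 to 47.2. Nnt has 2 annotated copies, and their sum was 162 and 156, beside 22.8 to 52.3 elsewhere. AC166110.4 was 29.5 and 24.7 in the same libraries, with 4.72 in AAV replicate 4 and at most 0.164 in the rest. Rsph3b was low, at 10.4 and 13.2, beside 30.1 to 48.3. At 7 dpi saline replicate 3 and AAV replicate 4 shared high clock output: Dbp was 143 and 139, beside 25.4 to 84.6, Ciart was 9.73 and 10.2, and Cry2 was 45.1 and 48.4. Chac1, a stress-induced glutathione-degrading enzyme, was 63.7 and 56.6.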
